A study of Mus musculus with 4 samples.

Results

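Genes for the transport, storage and sensing of zinc, iron and copper were examined in cultured vascular smooth muscle cells, which contract the wall of arteries. The set held every gene of the zinc transporter families Slc30a and Slc39a in the deposited table, with 17 named genes of the metallothioneins, ferritin, iron uptake and export, iron sensing and copper transport. It came to 41 of 25965 rows, chosen by name and not by a rule on measured values, though earlier results of these data were known. The cells came from the medial layer of aortas of healthy male mice, wild type on a C57Bl/6 background and 8 to 14 weeks old, were released with collagenase and elastase, and had been passaged 3 to 5 times in medium with 10% serum. There were 4 libraries of this single kind, called libraries 1 to 4 here, so the measurements are levels of genes, differences between genes within a library, and the spread between libraries. The labels do not say whether the libraries came from separate animals or cultures, so an SD may cover technical spread only.

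Cells take up zinc into the cytosol through the ZIP proteins encoded by the Slc39a genes, and move it out of the cytosol, into organelles or out of the cell, through the ZnT proteins encoded by the Slc30a genes. Metallothioneins buffer zinc and copper, and their genes are induced by the zinc-sensing transcription factor encoded by Mtf1. Iron enters as transferrin through the transferrin receptor, is stored in ferritin and leaves through ferroportin, while iron regulatory proteins bind a hairpin in the mRNAs of these genes. Copper enters through CTR1 and is passed by the chaperone ATOX1 to the pumps ATP7A or ATP7B, which load secreted copper enzymes such as lysyl oxidase.

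Levels are log2 scaled read counts as deposited, with the mean ± SD of n = 4 libraries. Levels of different genes were compared only after division by the summed exon length in kb, called the per-length level. A gene counted as detected when no library had a log2 value below 0, a level that took 22 to 30 reads. By this rule 30 of the 41 genes were detected, as were 47.4% of all rows of the table. The median per-length level of detected genes was 3.28 in the set and 2.93 in the table. In these cultures, fewer cells that express a gene and less RNA per cell cannot be told apart. The 30 detected genes spanned per-length levels of -0.74 to 10.11.

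The libraries held 40342561 to 56793195 reads on genes, and the smooth muscle markers Acta2, Tagln, Myh11, Cnn1 and Tpm2 were detected in all of them. Their summed level was 13.44 and 13.07 in libraries 1 and 2, and 14.53 and 14.79 in libraries 3 and 4. Adventitial fibroblast markers were also detected (4 of 4), with a summed level of 9.56 and 9.35 in libraries 1 and 2, and of 6.78 and 6.88 in libraries 3 and 4. Of 6 leukocyte markers 2 were detected, with sums of 5.90, 5.48, 3.76 and 3.72 in libraries 1 to 4, and Ptprc had 13, 27, 0 and 12 reads. Endothelial markers (3 of 4 detected) summed to between 3.92 and 5.42. None of 4 erythroid and none of 4 hepatocyte markers was detected, and Hba-a1 and Ttr had no reads. Median-ratio size factors, an alternative scaling, moved the libraries by -0.34, -0.11, 0.28 and 0.10 on the log2 scale relative to the deposited values. The deposited scaling thus places library 1 higher and library 3 lower than the alternative does. As deposited, the median level of all detected genes was 5.49, 5.22, 4.78 and 4.95 in libraries 1 to 4. A gene with higher values in libraries 1 and 2 thus shares this with the median detected gene. The labels give no batch or date.

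The sequences below are the matches in the set to a strict pattern of the iron-responsive element. They are shown because the ferritin genes had the highest, and Tfrc and Slc40a1 the lowest, per-length levels of the 8 iron genes that follow. The part of these elements in the levels was not tested. The pattern searched was an unpaired C, 5 bases, the loop CAGTGN with A, C or T as its last base, and 5 bases pairing with those before the loop. It was read on the coding strand of GENCODE M21 transcripts (GRCm38). Capitals mark the unpaired C and the loop.
Fth1, 5′ UTR, chr19:9982732-9982761, plus strand: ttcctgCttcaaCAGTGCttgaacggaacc
Ftl1, 5′ UTR, chr7:45459778-45459807, minus strand: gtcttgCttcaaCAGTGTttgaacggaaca
Slc40a1, 5′ UTR, chr1:45925464-45925493, minus strand: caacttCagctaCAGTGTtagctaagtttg
Tfrc, 3′ UTR, chr16:32631219-32631248, plus strand: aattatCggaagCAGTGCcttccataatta
Tfrc, 3′ UTR, chr16:32631598-32631627, plus strand: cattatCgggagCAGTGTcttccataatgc
Tfrc, 3′ UTR, chr16:32631663-32631692, plus strand: ctatatCggagaCAGTGAtctccatatgtt
Tfrc, 3′ UTR, chr16:32631710-32631739, plus strand: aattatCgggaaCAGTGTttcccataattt
The pattern was in a coding transcript of 4 of the 41 genes, and of 222 of 21877 protein-coding genes (1.01%). It lay before the coding sequence in Fth1, Ftl1 and Slc40a1, where the bound protein is known to block translation, and after it in Tfrc, where the bound protein is known to stabilise the mRNA. A match describes the letters and is not a measured binding site. The search counted G-T as a pair, which the Tfrc match starting at 32631598 used. It allowed no bulge and no further mismatch among the 5 pairs. Elements with such a stem would be missed, so the list of genes and of elements per gene may be incomplete.

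Iron storage genes were among the highest of the set, and Fth1 ranked first per length. Fth1, the ferritin heavy chain with ferroxidase activity (chromosome 19, 9982703 to 9985092), had 93678, 118116, 99980 and 106753 reads in libraries 1 to 4. Its mean level was 11.91 ± 0.21, with a range of 11.65 to 12.15, and its per-length level of 10.11 was above 99.4% of detected genes. Ftl1, the light chain (chromosome 7, 45457944 to 45459884), had levels of 9.50, 10.01, 9.54 and 9.45, a mean of 9.63 ± 0.26. Library 2 was the high one for Ftl1, while the level of Fth1 was highest in library 3 and lowest in library 1. Per length, Fth1 minus Ftl1 was 0.91 ± 0.27 and positive in 4 of 4 libraries, and it became 1.65 when lengths of the principal transcripts were used. Both ferritin genes have processed pseudogenes in the mouse genome, so reads may be divided between copies. The ferritin genes together took 0.246% ± 0.0386 of the reads on genes (SD, n = 4).

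Iron uptake and export genes lay far lower. Tfrc, the transferrin receptor gene (chromosome 16, 32608920 to 32632794), had levels of 3.68, 3.66, 3.49 and 2.90, a mean of 3.43 ± 0.37. Its per-length level of 0.80 was above 18% of detected genes, and Fth1 exceeded it by 9.31 ± 0.41 per length, in 4 of 4 libraries. Library 4 was the low one on the deposited scale. Summed levels of the cycling-cell markers Mki67, Top2a and Cdk1 were 8.69, 9.46, 7.65 and 7.95 in libraries 1 to 4, and their part in the Tfrc level was not tested. Slc11a2, which encodes the iron importer DMT1 of endosomes and the cell surface, had levels of 5.60, 5.34, 4.45 and 4.79, a mean of 5.04 ± 0.52. Libraries 1 and 2 were above libraries 3 and 4.

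Slc40a1, encoding ferroportin, the known cellular iron exporter of mammals (chromosome 1, 45908070 to 45925594), was not detected. It had 24, 9, 7 and 8 reads in libraries 1 to 4. The highest count was in library 1, and the other libraries held 7 to 9 reads. Per length, Tfrc exceeded Slc40a1 by 5.35 ± 0.61 and Slc11a2 exceeded it by 6.92 ± 0.53, each in 4 of 4 libraries. With principal transcript lengths the Tfrc difference was 4.27. Ferroportin is known as a gene of macrophages, gut and liver, and of the leukocyte and macrophage markers Csf1r and Lyz2 were detected. Csf1r had 564, 581, 187 and 296 reads, Lyz2 927, 441, 68 and 39, and C1qa 173, 201, 0 and 18. Cd68 had 49, 35, 42 and 21 reads, and Emr1 14, 4, 0 and 0. Most had fewer reads in libraries 3 and 4, while Cd68 had similar reads in libraries 1 to 3. Their part in the Slc40a1 counts was not tested.

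The iron regulatory protein genes were both detected. Aco1, encoding IRP1, a protein that is a cytosolic aconitase when it holds an iron-sulfur cluster, had levels of 6.01, 5.68, 5.18 and 5.64 (mean 5.63 ± 0.34). Ireb2, encoding IRP2, which is degraded when iron is plentiful, had levels of 5.02, 4.56, 4.11 and 3.76 (mean 4.36 ± 0.55). As deposited, each was highest in library 1, and Aco1 was lowest in library 3 and Ireb2 in library 4. With median-ratio size factors Aco1 was highest in library 4. Ireb2 minus Aco1 was -2.34 ± 0.41 per length, with values of -2.06, -2.20, -2.14 and -2.96, so that library 4 stood below the others.

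Trf, encoding the serum iron carrier transferrin, is best known from liver (chromosome 9, 103204001 to 103230444). It had levels of 6.81, 6.90, 8.51 and 6.41, from 3266, 3445, 8038 and 2497 reads. Library 3 was the high one, and the highest level was 4.30 times the lowest on the deposited scale and 4.99 times with median-ratio size factors. The mean was 7.16 ± 0.93, and Tfrc minus Trf was -4.62 ± 0.88 per length. Of the hepatocyte markers Alb had 8, 0, 0 and 0 reads, Ahsg 26, 33, 0 and 0, Apoa1 0, 1, 17 and 4, and Ttr none. None was detected, Apoa1 had its most reads in library 3, as Trf did, and Alb and Ahsg had none there. Their part in the Trf level was not tested. Gm20425, a row on the same strand that shares 2108 exon bases with Trf, had 5645, 5868, 8718 and 4572 reads, so reads of Trf may be counted in both rows.

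**Figure D1:**
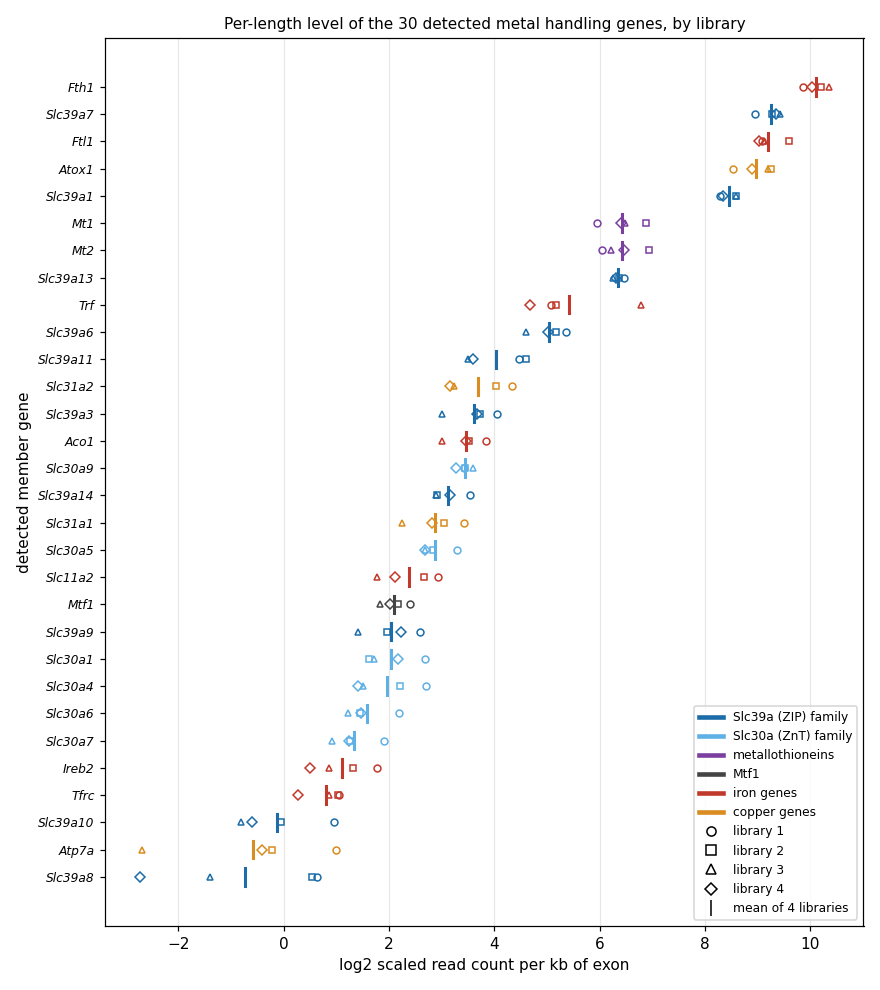
Per-length level (x axis, log2 scaled read count per kb of exon) of the 30 detected genes, ordered by mean, with 1 symbol per library and a bar at the mean of 4 libraries. Fth1 is highest at 10.11, and Slc39a8 is lowest at -0.74 with the widest spread.

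The metallothionein genes Mt1 and Mt2 shared their highest and lowest libraries on the deposited scale. Mt1 (chromosome 8, 94179089 to 94180325) had levels of 6.27, 7.19, 6.80 and 6.72, a mean of 6.75 ± 0.38. Mt2 (chromosome 8, 94172618 to 94173567) had levels of 5.29, 6.18, 5.45 and 5.70, a mean of 5.65 ± 0.39. Both were highest in library 2 and lowest in library 1 as deposited, and with median-ratio size factors both stayed lowest in library 1 while Mt1 was highest in library 3. Per length, Mt2 minus Mt1 was 0.10, 0.07, -0.27 and 0.06 in libraries 1 to 4, a mean of -0.01 ± 0.18. This near-equality rests on the lengths used: with the principal transcripts the difference was -0.99, and without division it was -1.09. Mt3, known from neurons, had 0, 6, 0 and 0 reads and was not detected.

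The 300-base windows around the annotated starts of Mt1 and Mt2 (RefSeq, GRCm38.p6; 250 bases before and 50 after the start) are shown because these genes are the best known targets of MTF1. Capitals mark the core of the metal-responsive element, the site of MTF1, searched as TGCACNC or TGCGCNC on both strands.
Mt1, chr8:94178839-94179138, plus strand: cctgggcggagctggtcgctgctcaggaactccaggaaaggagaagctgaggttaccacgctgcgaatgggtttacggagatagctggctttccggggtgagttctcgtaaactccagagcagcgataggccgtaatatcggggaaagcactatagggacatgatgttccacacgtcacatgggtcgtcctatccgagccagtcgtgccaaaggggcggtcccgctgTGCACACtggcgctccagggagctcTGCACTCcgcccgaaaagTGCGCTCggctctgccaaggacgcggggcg
Mt2, chr8:94172368-94172667, plus strand: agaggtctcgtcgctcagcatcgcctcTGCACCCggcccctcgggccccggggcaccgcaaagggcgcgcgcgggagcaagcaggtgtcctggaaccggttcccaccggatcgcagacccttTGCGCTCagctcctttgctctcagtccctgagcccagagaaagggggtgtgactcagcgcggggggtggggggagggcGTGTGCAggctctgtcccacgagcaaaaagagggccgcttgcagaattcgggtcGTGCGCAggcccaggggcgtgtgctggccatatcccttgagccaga
Mt1 held 3 cores, all on the plus strand, and Mt2 held 4, of which 2 were on each strand, with no overlap between cores. At least 1 core was in a window of 19 of the 34 genes of the set with a window, and in 25.7% of all 32851 windows. At least 3 cores were in Mt1, Mt2, Slc30a10 and Slc30a4, and in 1.97% of all windows. A gene of the set with more than 1 window counted once, by its window with the most cores. The shares over all windows count single windows, so the units differ and the comparison favours the set. Slc30a1, a known target of MTF1, held 2.

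Mtf1 itself had levels of 5.56, 5.32, 4.99 and 5.17, a mean of 5.26 ± 0.24. The libraries differed little, and with median-ratio size factors the SD was 0.03, against a median of 0.37 over all detected genes. Mtf1 shares 721 exon bases with 1110065P20Rik on the opposite strand. Whether strand was used in counting is not given in the sources used here; the reads of such an overlap cannot be told apart.

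Zinc importer genes ranged from among the highest genes of the libraries to no more than a few reads. Of 14 Slc39a genes 10 were detected. Slc39a7, which releases zinc from the endoplasmic reticulum (chromosome 17, 34028267 to 34031690), had levels of 10.33, 10.64, 10.79 and 10.72 and a mean of 10.62 ± 0.20. Slc39a1, a plasma membrane importer (chromosome 3, 90248172 to 90253612), had levels of 9.52, 9.83, 9.84 and 9.59 and a mean of 9.69 ± 0.16. Per length these levels were 9.25 and 8.45, above 98.7% and 97.6% of detected genes, and library 1 was the low one for both. They made up 54.3% ± 3.70 and 31.2% ± 1.73 of the summed per-length level of the family (SD, n = 4).

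The Slc39a7 row shares 2084 exon bases with Gm20427 on the same strand. Gm20427 had 37489, 47038, 41446 and 52057 reads in libraries 1 to 4, and Slc39a7 had 37383, 46199, 38921 and 49507. The rows differed by at most 0.09 on the log2 scale, so the same reads may be counted in both.

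Slc39a13, an intracellular transporter whose loss in humans causes a connective tissue disorder of the Ehlers-Danlos group, had 12411, 11600, 8180 and 11400 reads and levels of 8.54 to 8.74. It had the smallest spread of the 30 genes as deposited, 8.63 ± 0.08, while with median-ratio size factors its SD was 0.18. It shares 215 exon bases with Psmc3, a proteasome gene on the opposite strand with a mean level of 10.75. Slc39a7 exceeded Slc39a13 by 2.90 ± 0.29 per length in 4 of 4 libraries, and by 2.08 with principal transcript lengths. Slc39a6, whose protein pairs with that of Slc39a10 at the cell surface, had levels of 7.39, 7.19, 6.64 and 7.04 and a mean of 7.06 ± 0.32. Slc39a10 had levels of 3.56, 2.56, 1.81 and 2.01 and a mean of 2.49 ± 0.79, with library 1 above the others. Slc39a6 exceeded Slc39a10 by 5.16 ± 0.53 per length.

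The genes for the importers of zinc, manganese and iron, Slc39a14 and Slc39a8, differed in level and in spread. Slc39a14 averaged 6.53 ± 0.30. Slc39a8 (chromosome 3, 135825279 to 135888572) had levels of 3.57, 3.49, 1.54 and 0.21, from 345, 324, 64 and 34 reads. Libraries 1 and 2 were close to each other and above libraries 3 and 4. The highest level was 10.3 times the lowest as deposited and 8.34 times with median-ratio size factors. Adventitial fibroblast markers were also higher in libraries 1 and 2: Dpt had 4133, 3750, 110 and 111 reads, Serpinf1 10764, 9016, 639 and 533, Pi16 476, 466, 145 and 99, and Mfap5 6542, 5622, 1529 and 2710. Summed leukocyte and macrophage markers (5.90, 5.48, 3.76 and 3.72) and cycling-cell markers (8.69, 9.46, 7.65 and 7.95) were also higher in libraries 1 and 2. Smooth muscle markers were lower in libraries 1 and 2. As deposited, the median level of all detected genes was also higher in libraries 1 and 2. The part of these markers in the Slc39a8 level, and in the other genes with higher values in libraries 1 and 2, was not tested. Slc39a14 minus Slc39a8 was 2.91, 2.37, 4.29 and 5.89 per length, a mean of 3.86 ± 1.57, which was 3.19 without library 4.

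Slc39a11, a transporter placed in the Golgi and nucleus, had levels of 6.21, 6.34, 5.25 and 5.35 and a mean of 5.79 ± 0.57, again with libraries 1 and 2 above the other two. Slc39a3, a surface importer related to Slc39a1, averaged 5.62 ± 0.44, and Slc39a9, a Golgi transporter, 5.39 ± 0.50. Slc39a9 shares 459 exon bases with Erh, on the opposite strand and at a mean level of 5.71. Slc39a1 exceeded Slc39a3 by 4.83 ± 0.57 per length in 4 of 4 libraries. The family members known from particular tissues were not detected. Slc39a4, of the gut, had 17, 9, 2 and 2 reads, Slc39a2, of the skin, 4, 7, 0 and 0, Slc39a12, of the brain, 2, 0, 0 and 0, and Slc39a5, of the pancreas and gut, 0, 0, 0 and 1. A count of 0 allows up to 3 reads, or a level of up to -3.28, -3.27, -2.87 and -3.29 in libraries 1 to 4, for counting error only.

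Zinc exporter genes had a narrower range. Of 10 Slc30a genes 6 were detected, at per-length levels of 1.33 to 3.44, while the detected Slc39a genes spanned -0.74 to 9.25. Slc30a9, assigned to mitochondrial zinc export, was the highest per length, with levels of 7.06, 7.07, 7.23 and 6.90 and a mean of 7.07 ± 0.14. Its libraries lay close together as deposited. With median-ratio size factors its SD was 0.33, against a median of 0.37 over all detected genes. Slc30a5, a subunit of the zinc transporter of the early secretory pathway, had levels of 6.15, 5.70, 5.56 and 5.56, and its partner Slc30a6 had levels of 3.82, 3.07, 2.85 and 3.09. Both were highest in library 1 as deposited, while with median-ratio size factors Slc30a5 was highest in library 3. Slc30a5 exceeded Slc30a6 by 1.29 ± 0.17 and the Golgi transporter gene Slc30a7 (mean level 4.81 ± 0.42) by 1.54 ± 0.18 per length. With principal transcript lengths these differences were 1.97 and 2.44.

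Slc30a1, the plasma membrane exporter gene (chromosome 1, 191906767 to 191913247), had levels of 5.07, 4.01, 4.10 and 4.57 and a mean of 4.44 ± 0.49. Library 1 was its high library and library 2 its low one, where Mt1 and Mt2 had their lowest and highest levels as deposited. Slc30a1 shares 468 exon bases with 1700034H15Rik, on the opposite strand and at a mean level of 2.00. Slc30a4, a transporter of endosomes and secretory vesicles, had levels of 5.15, 4.66, 3.97 and 3.88 and a mean of 4.41 ± 0.60. Slc30a1 minus Slc39a1, the surface exporter against the surface importer, was -6.40 ± 0.64 per length and negative in 4 of 4 libraries. Summed over families, Slc39a exceeded Slc30a by 5.13 ± 0.37 per length, with values of 4.58, 5.25, 5.37 and 5.31. With principal transcript lengths this difference was 4.52. Slc30a2 of mammary gland, Slc30a3 of synaptic vesicles, Slc30a8 of insulin granules and the manganese exporter gene Slc30a10 had no reads in any library.

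Copper genes were led by the chaperone. Atox1 (chromosome 11, 55446641 to 55461239) had levels of 7.65, 8.37, 8.31 and 8.00, a mean of 8.08 ± 0.33 and a per-length level of 8.97, above 98.4% of detected genes. Library 1 was low, and with median-ratio size factors its SD was 0.54. Atp7a, the copper pump gene of most tissues (chromosome X, 106027276 to 106124926), had levels of 4.12, 2.91, 0.45 and 2.72, from 504, 217, 30 and 193 reads. Library 1 was high and library 3 low, and the highest level was 12.7 times the lowest as deposited and 8.29 times with median-ratio size factors. Atox1 exceeded Atp7a by 9.55 ± 1.78 per length, by 8.77 without library 3 and by 10.22 without library 1. It was 8.71 with principal transcript lengths and 5.54 without division by length.

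Atp7b, the pump gene of liver, had 0, 1, 0 and 0 reads. The pooled ratio of 944 Atp7a reads to 1 Atp7b read was 944. Its 95% interval, exact binomial and for counting error alone, ran from 169 to 37325. The copper importer gene Slc31a1, encoding CTR1, had levels of 5.52, 5.15, 4.35 and 4.91 (mean 4.98 ± 0.49). Slc31a2, encoding its intracellular relative CTR2, had levels of 5.37, 5.05, 4.26 and 4.18 (mean 4.71 ± 0.59). As deposited, libraries 1 and 2 were above libraries 3 and 4 for both. With median-ratio size factors the levels of Slc31a1 were 5.18, 5.04, 4.62 and 5.02, so that library 4 lay close to library 2. Per length Slc31a1 minus Slc31a2 was -0.81 ± 0.31, with values of -0.92, -0.98, -0.99 and -0.34, and without division by length it was 0.27.

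**Figure D2:**
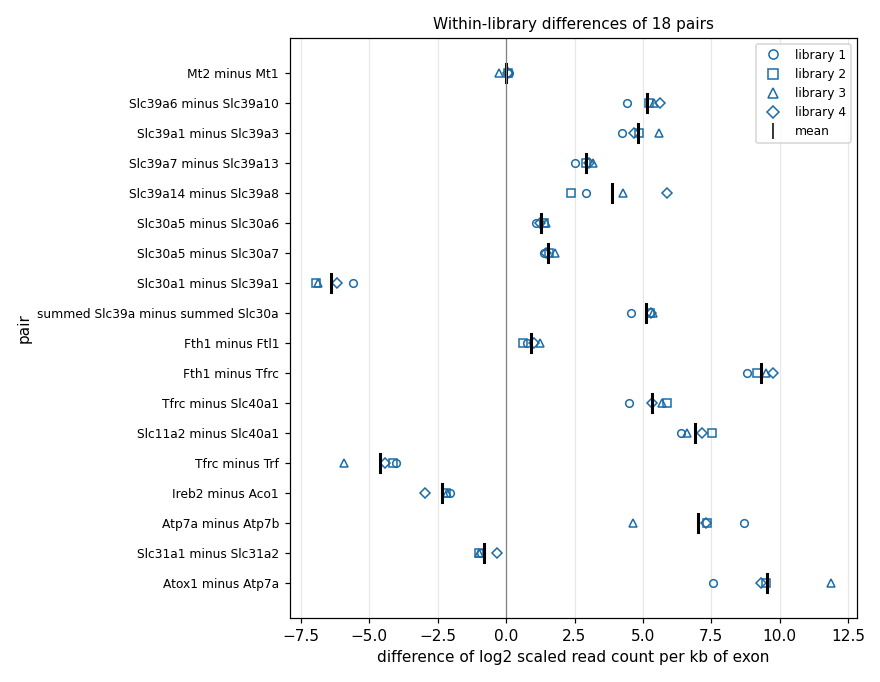
Differences of per-length levels (x axis, log2) within each library for 18 pairs of genes or families, with 1 symbol per library and a bar at the mean. All pairs except Mt2 and Mt1 have 1 sign in 4 of 4 libraries; the position of the pair with Atp7b depends on the floor set for genes without reads.

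In all, 18 differences within libraries were compared, and 17 kept their sign across the 4 libraries. An exact permutation test that flips signs, two-sided, returned p = 0.13 for each of them, the smallest that 4 libraries allow, and p = 0.132 after Benjamini-Hochberg adjustment over 18 tests. None could reach a threshold of 0.05. For Mt2 minus Mt1 the exact p was 1. In the order of per-length levels, Fth1 was above the next gene in 4 of 4 libraries. For some neighbours the upper gene was above the lower in at most 2 of 4 libraries. Such pairs were Slc39a7 with Ftl1 and Trf with Slc39a6. Longer runs of such neighbours were Mt1, Mt2 and Slc39a13, then Mtf1, Slc39a9, Slc30a1 and Slc30a4, and last Slc39a10, Atp7a and Slc39a8. Others outside this list also had gaps smaller than their SDs, such as Slc31a1 over Slc30a5 (0.007) and Aco1 over Slc30a9 (0.021).

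A gene was called variable when the SD between libraries was above 0.5. By this rule 9 of the 30 detected genes were variable, and 40.5% of all detected genes were. They were Slc39a8, Atp7a, Trf, Slc39a10, Slc30a4, Slc31a2, Slc39a11, Ireb2 and Slc11a2. With median-ratio size factors 6 genes were variable, against 30.7% of all detected genes. Slc39a8, Atp7a, Trf and Slc39a10 were among both, and Atox1 and Mt1 entered. Without library 1 as deposited, 4 genes were variable, and without library 2 or library 4 there were 14.

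**Figure D3:**
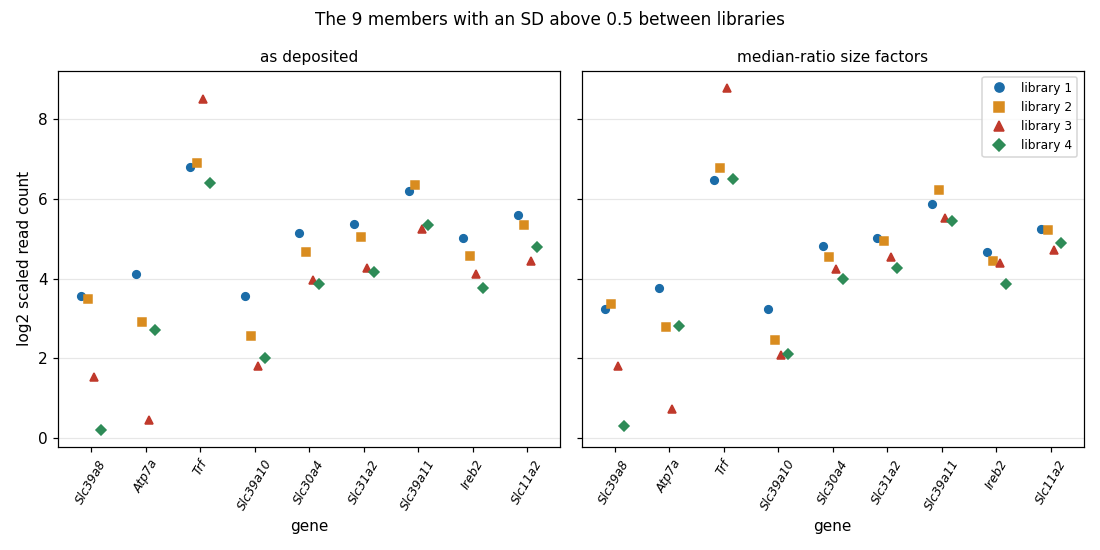
Level (y axis, log2 scaled read count) in each library of the 9 genes with an SD above 0.5, as deposited on the left and with median-ratio size factors on the right. Slc39a8 and Atp7a span the widest ranges, and Trf is highest in library 3 on both scales.

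Which library was highest differed with exon length. Of the 30 genes 20 were highest in library 1, as were 53.6% of all detected genes, and 15 were lowest in library 3, as were 52.9%. With median-ratio size factors 10 genes were highest in library 1 (31% of all detected genes), 11 in library 3 (30.3%), 4 in library 2 (21.6%) and 5 in library 4 (17.2%). On that scale 10 were lowest in library 1 (34.4%), 8 in library 3 (28.7%), 6 in library 2 (20.2%) and 6 in library 4 (16.7%). As deposited, the genes highest in library 1 had a median exon length of 6140 bases and those highest in library 2 of 1246 bases. Across the 30 genes, the difference of library 3 minus library 1 had a Pearson r of -0.50 and a Spearman rho of -0.46 with log2 exon length. Across 12113 detected genes the values were -0.32 and -0.34. These are descriptions across genes of the same libraries, which are not independent replicates. Atox1, with 541 bases of exon, was 0.66 higher in library 3, and for Atp7a, with 8734 bases, the difference was -3.67. Detected genes were divided by length into 4 classes of equal size, and the median difference was -1.01 in the longest class and -0.19 in the shortest. Trf, 1.70 higher in library 3, and Slc30a9, 0.17 higher, lay above the medians of their length classes, -0.49 and -1.01. The part of length in these differences was not tested.

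**Figure D4:**
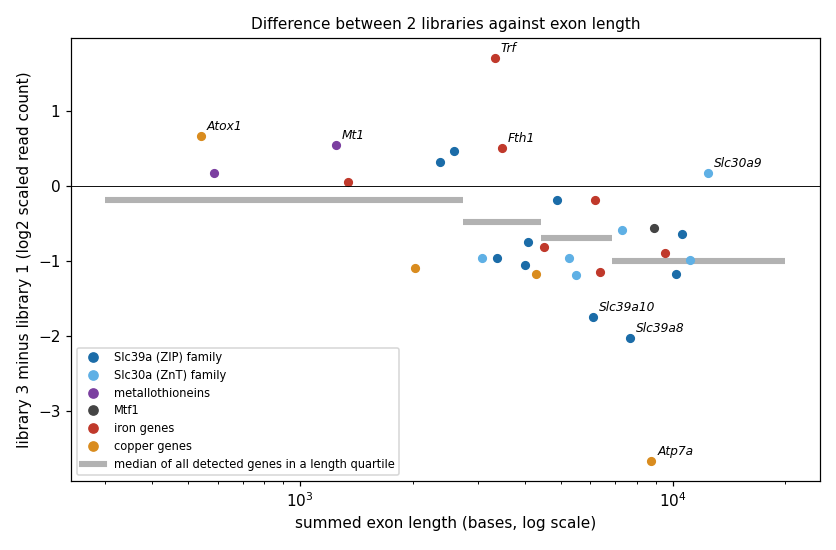
Library 3 minus library 1 (y axis, log2 scaled read count) against summed exon length (x axis, bases, log scale) for the 30 detected genes, with grey bars at the median of all detected genes in each of 4 length classes. Atp7a lies at -3.67 and Trf at 1.70.

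Other genes of the same pathways were described from fixed lists. Of all rows 47.4% were detected, and of all detected genes 40.5% were variable. Of 35 further iron genes 23 were detected and 10 of these were variable, a share near that of the table. The highest per length were Hmox1, the haem-degrading enzyme gene, at a level of 9.10 ± 0.28, Pcbp1, an iron chaperone gene, at 7.23 ± 0.31, and Glrx3, a glutaredoxin gene of iron-sulfur handling, at 8.40 ± 0.15. The hepcidin genes Hamp and Hamp2 and the mitochondrial ferritin gene Ftmt had no reads in any library. Of 11 further copper genes all were detected and 2 were variable. They were led by Lox, encoding lysyl oxidase, at 11.38 ± 0.73, Sod1 at 9.85 ± 0.21 and Slc25a3, a mitochondrial carrier of copper and phosphate, at 9.25 ± 0.33. Of 6 further zinc genes 3 were detected, namely the zinc receptor gene Gpr39 at 8.63 ± 0.75, Cbwd1 at 3.72 ± 0.28 and the channel kinase gene Trpm7 at 4.98 ± 0.58. Mt4, known from stratified epithelia, had no reads. Gpr39 had 18014, 18000, 5673 and 7344 reads, with libraries 1 and 2 above libraries 3 and 4.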

How the data were processed

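Polyadenylated RNA of 4 libraries in 1 group was measured (TruSeq Stranded mRNA kit, per the labels' protocols, RNA integrity numbers of 7.8 to 9). The submitters' processing notes name Trim Galore, cutadapt, TopHat and GRCm38; the counter, with its annotation and use of strand, is not given in the sources used here. The authors deposited log2 scaled read counts, without division by gene length. Division by what 1 read is worth, with the lowest value of a library as 0.9 read, returned reads that were whole to within 0.05 read for 99.8% to 99.9% of values. A fragment may be counted more than once, so reads are in recovered units, and floors and intervals cover counting error only.

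Exon lengths came from GENCODE M21 on GRCm38, matched by symbol and position for 41 of 41 genes and 94.6% of rows. Start and end were identical for 25 of the 41, and printed gene coordinates are those of the table. Functions were tested on simulated data. The genes and lists were chosen with earlier results of these data known. Named with values in every library were the genes outside the transporter families, the 4 highest per length and 3 most variable detected genes of each family, and undetected genes with reads; for the pathway lists, the 3 highest per length and those without reads. Alternatives were other detection and SD thresholds, median-ratio size factors, other lengths, genes without reads at 3 reads, shares without mitochondrial genes, and leaving out each library; principal transcript lengths were added after the data were seen. Versions were pandas 2.3.3, scipy 1.17.1, numpy 2.4.6, matplotlib 3.10.9 and Python 3.11.15.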

Additional observations from a re-analysis of the deposited data

Results flagged for a closer look

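Of 60 sets of 4 library values checked, 10 had a library far from the others by the gap to the nearest value divided by the range, a ratio above Dixon's 95% critical value for 4 samples; chance flags about 1 in 20 such sets. On levels this was Ftl1, high in library 2 (ratio 0.835). On reads it was Slc40a1, with 24 reads in library 1 and 7 to 9 in the others (0.882), and Atp7b, Mt3, Slc39a12 and Slc39a5, which had 1, 6, 2 and 1 reads in a single library and none elsewhere; their ratio is 1 by construction, so these 4 are no sign of an unusual library. Among differences within libraries it was Mt2 minus Mt1, lowest in library 3 at -0.27 (0.885), Slc39a minus Slc30a sums, lowest in library 1 at 4.58 (0.845), Ireb2 minus Aco1, lowest in library 4 at -2.96 (0.846), and Slc31a1 minus Slc31a2, highest in library 4 at -0.34 (0.893).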

How the results depend on the processing

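The number of detected genes stayed within 1.5 times of 30 under all 8 alternatives run. The number of variable genes was 2 with an SD above 1, 14 with no filter on low values, and between 4 and 14 when 1 library was left out. Of the recomputed differences within libraries 142 kept their sign, and 2 changed sign. No side of the threshold could change, because no test could reach 0.05. For the 17 pairs with 1 sign in 4 of 4 libraries, leaving out a library cannot change the sign. The floor of 3 reads alters only differences that include genes without reads. Most of the 142 were thus fixed in advance and say little on robustness. Mt2 minus Mt1 was 0.076 without library 3 and lay between -0.049 and 0.076 when 1 library was left out. Slc31a1 minus Slc31a2 was 0.27 without division by length. Principal transcript lengths moved 10 of 18 differences by more than 1.5 times on the linear scale, longest transcripts 5 and no division 13. Atp7a minus Atp7b was 5.70 with genes without reads at 3 reads. Levels of the 41 genes and the 5 shares of reads moved by less than 1 SD under each alternative run for them. These alternatives could hardly show otherwise, so nothing is concluded from it. Leaving out 1 of 4 libraries cannot move a mean by 1 SD, and the alternative scaling shifted all mean levels by the same small amount. Mitochondrial genes held 0.38% of reads or less. No paired analysis was possible because there is 1 group. With 3 libraries the smallest exact p is 0.25, so leaving out a library says nothing on calls. Read counts limit statements on the 11 genes that were not detected.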

Other observations

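Among the further iron genes, the copper-dependent ferroxidase genes, named after their values were seen, differed between libraries. Cp, encoding ceruloplasmin, had levels of 6.44, 5.84, 3.21 and 3.31, from 2523, 1654, 203 and 291 reads. Heph, encoding hephaestin, had levels of 6.05, 4.58, 3.89 and 4.04. Cp was higher in libraries 1 and 2, and Heph was highest in library 1. As deposited, the metalloreductase genes of the STEAP family also had higher values in libraries 1 and 2, as did the median detected gene. Steap1 had levels of 4.18, 5.39, 3.42 and 3.50, and Steap2 had levels of 5.75, 5.44, 3.90 and 3.93. Steap3 had levels of 4.66, 4.88, 3.95 and 3.75, with an SD of 0.38 with median-ratio size factors. Steap4, not detected, had 29, 75, 0 and 1 reads. With median-ratio size factors the SDs of Cp, Heph, Steap1 and Steap2 were 1.43, 0.74, 0.79 and 0.73. Adventitial fibroblast markers summed to 9.56, 9.35, 6.78 and 6.88 in libraries 1 to 4. Leukocyte and macrophage markers summed to 5.90, 5.48, 3.76 and 3.72, and cycling-cell markers to 8.69, 9.46, 7.65 and 7.95. The part of these markers in the values of the ferroxidase and STEAP genes was not tested.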
